A study of Mus musculus with 2 samples.

Results

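The core circadian clock genes were followed in the genome binding profile of CHD2, a chromodomain helicase that remodels nucleosomes, in ES-E14, a mouse embryonic stem cell line. They are the 10 genes Arntl, Clock, Per1, Per2, Per3, Cry1, Cry2, Nr1d1, Nr1d2 and Dbp, out of 21531 protein-coding genes that could be placed with a strand. Their peaks were those in the gene or within 30 kb of it. The genes were picked with the peak lists already in view, so every count and rank below is a description and carries no test.

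There was 1 group: chromatin of ES-E14 cells, strain 129/Ola, from a male embryo, precipitated with an antibody to CHD2 in 2 biological replicates. No engineered allele, agent or treatment is named in the labels, and both replicates cite the same cell stock and donor record, so the line stands for 1 genotype. No treatment, genotype or time of day was compared. The data were peak lists without read counts, so the depth behind each signal is unknown. The control was not analysed here.

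The clock is a feedback loop. CLOCK and BMAL1, the product of Arntl, pair and bind E-boxes to activate Per and Cry genes, and PER and CRY proteins then repress the pair. REV-ERB alpha and beta, the products of Nr1d1 and Nr1d2, repress Arntl through AGGTCA elements, and DBP activates genes through D-boxes. Pluripotent mouse stem cells are known to lack a running clock until they differentiate.

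The optimal list, the main list derived from both replicates, held 8282 peaks with signals of 5.737 to 463.1 and a median of 29.63. The signal is the authors' own value per peak and has no stated unit, so it was compared within a list only. The conservative list held 7530 peaks. Each relaxed list, which also contains background, held 300000 peaks, and its 20000th peak had a signal of 13.42 in the pooled list, 8.092 in replicate 1 and 7.867 in replicate 2. Among stem cell genes, an optimal peak lay at the starts of Pou5f1 (19) and Sox2 (25.7) but not of Nanog. Binding does not measure their expression.

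CHD2 peaks lay at the starts of 7 of the 10 clock genes in the optimal list. They were at Arntl, Per1, Per2, Cry1, Cry2, Nr1d2 and Dbp, and none was at Clock, Per3 or Nr1d1. The sequences at the 5 strongest of these peaks are shown first because their content differs from gene to gene. Per3 and Nr1d1 follow as clock promoters with no optimal peak. A start is the outer 5′ end of the gene or a start in the RefSeq promoter table of GRCm38.p6, and a peak is at a start where its summit is within 1 kb of it. Capitals mark exact matches, on either strand, to the CCAAT box (CCAAT), the GC box (GGGCGG), the E-box (CACGTG), the E-prime box (CACGTT), the D-box (TTATGTAA) and the ROR and REV-ERB element (AGGTCA). A match is not evidence of a bound site.

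The Arntl, Per3 and Nr1d1 sequences are RefSeq promoter sequence of build GRCm38.p6, the 250 bases before a start, and every sequence is written 5′ to 3′ on the strand of its gene. Arntl is chr7:113207215-113207464 on the plus strand, Per3 is chr4:151044666-151044915 on the minus strand and Nr1d1 is chr11:98775378-98775627 on the minus strand. The other 4 are mm9 genome sequence under peaks of the mm9 list. Cry2 is chr2:92273670-92273933 on the minus strand, inside an intron, and Per2 is chr1:93355908-93356069 on the minus strand. Per1 is chr11:68908435-68908588 and Dbp is chr7:52960158-52960457, both on the plus strand. The Per2 and Dbp stretches end at the base before the annotated start. The Arntl stretch covers part of its optimal peak, chr7:113207120-113207443, and runs beyond the end of that peak.
Arntl: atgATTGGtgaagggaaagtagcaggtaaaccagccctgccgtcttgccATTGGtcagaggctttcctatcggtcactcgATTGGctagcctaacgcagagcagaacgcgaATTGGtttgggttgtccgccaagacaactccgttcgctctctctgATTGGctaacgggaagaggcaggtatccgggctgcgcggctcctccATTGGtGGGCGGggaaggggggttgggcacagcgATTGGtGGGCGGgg
Cry2: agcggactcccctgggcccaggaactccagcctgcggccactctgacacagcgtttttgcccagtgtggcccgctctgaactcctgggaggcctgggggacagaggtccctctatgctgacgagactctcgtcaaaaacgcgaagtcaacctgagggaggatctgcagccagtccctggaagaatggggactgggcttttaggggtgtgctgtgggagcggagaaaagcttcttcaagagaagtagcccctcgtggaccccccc
Per2: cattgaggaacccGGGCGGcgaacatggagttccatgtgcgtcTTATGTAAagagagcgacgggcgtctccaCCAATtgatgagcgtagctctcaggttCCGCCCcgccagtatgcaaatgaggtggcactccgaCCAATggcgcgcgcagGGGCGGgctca
Per1: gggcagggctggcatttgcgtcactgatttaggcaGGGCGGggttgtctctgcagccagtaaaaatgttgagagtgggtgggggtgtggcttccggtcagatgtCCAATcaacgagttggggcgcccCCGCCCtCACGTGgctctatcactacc
Dbp: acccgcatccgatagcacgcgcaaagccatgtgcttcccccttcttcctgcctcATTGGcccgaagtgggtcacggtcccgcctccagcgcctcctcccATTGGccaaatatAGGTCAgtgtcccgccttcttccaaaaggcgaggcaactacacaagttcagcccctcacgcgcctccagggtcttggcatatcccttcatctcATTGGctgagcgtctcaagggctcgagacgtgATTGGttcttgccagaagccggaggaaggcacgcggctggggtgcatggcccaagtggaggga
Per3: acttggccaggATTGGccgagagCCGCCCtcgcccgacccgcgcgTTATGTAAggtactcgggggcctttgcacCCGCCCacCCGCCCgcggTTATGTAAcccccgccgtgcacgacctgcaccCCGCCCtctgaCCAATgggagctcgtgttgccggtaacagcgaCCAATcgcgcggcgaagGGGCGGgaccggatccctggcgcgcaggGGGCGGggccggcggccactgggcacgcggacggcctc
Nr1d1: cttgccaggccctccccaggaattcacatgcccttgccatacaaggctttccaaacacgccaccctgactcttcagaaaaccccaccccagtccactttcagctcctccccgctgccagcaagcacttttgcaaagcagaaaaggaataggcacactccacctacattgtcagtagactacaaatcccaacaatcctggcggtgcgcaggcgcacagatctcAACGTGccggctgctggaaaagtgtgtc

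The Arntl stretch carries 7 CCAAT boxes, and every one reads ATTGG on the strand of the gene. The optimal summit lies at base 64 of the printed stretch, between the box at bases 50 to 54 and the box at bases 81 to 85. An eighth box follows the start, so the 300-base window of the promoter table, 250 bases before the start and 50 after it, held 8, spaced 31 to 46 bases apart from start to start of the boxes. Of 21263 promoter windows in the table, Arntl's was the only one with 8, and 3 windows held 7 or more. Of these 3, 2 belong to Arntl, whose 2 listed starts have overlapping windows. The count of boxes was chosen for description after the sequence was seen.

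Arntl, which encodes BMAL1, had the strongest start peak of the clock genes in the optimal, conservative and pooled lists and in replicate 2, and Cry2 had the strongest in replicate 1. The peak at chr7:113207120-113207443 (GRCm38.p6) had a signal of 113 in replicate 1 and 154 in replicate 2, where it ranked 233 and 63 of all peaks. It had a signal of 269 and rank 122 in the optimal and conservative lists alike. Both replicates thus placed it among their strongest peaks, and 1.46% of the optimal list was stronger. In the mm9 list, called from both replicates together, it ranked 141 of 4613 peaks.

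The summit lay 187 bp upstream of a start in the promoter table and 28807 bp downstream of the outer 5′ end of Arntl. Measured from outer 5′ ends alone it would count as a peak inside the gene and far from any start. Of 3677 optimal peaks over 10 kb from every outer 5′ end, 81 (2.2%) were within 1 kb of a start in the promoter table, and Arntl's ranked 2 by signal among all 3677. By the rule of likeness, which took peaks over 10 kb from any start and compared log2 signals in the optimal list and both replicates, the nearest genes were Pstpip2, Ssc5d and Zmat3. Their log2 distances from the Arntl peak were 0.467, 0.753 and 0.777. Pstpip2 had a signal of 113 in replicate 1 and 117 in replicate 2, and its summit was 12.4 kb from the nearest listed start.

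**Figure D1:**
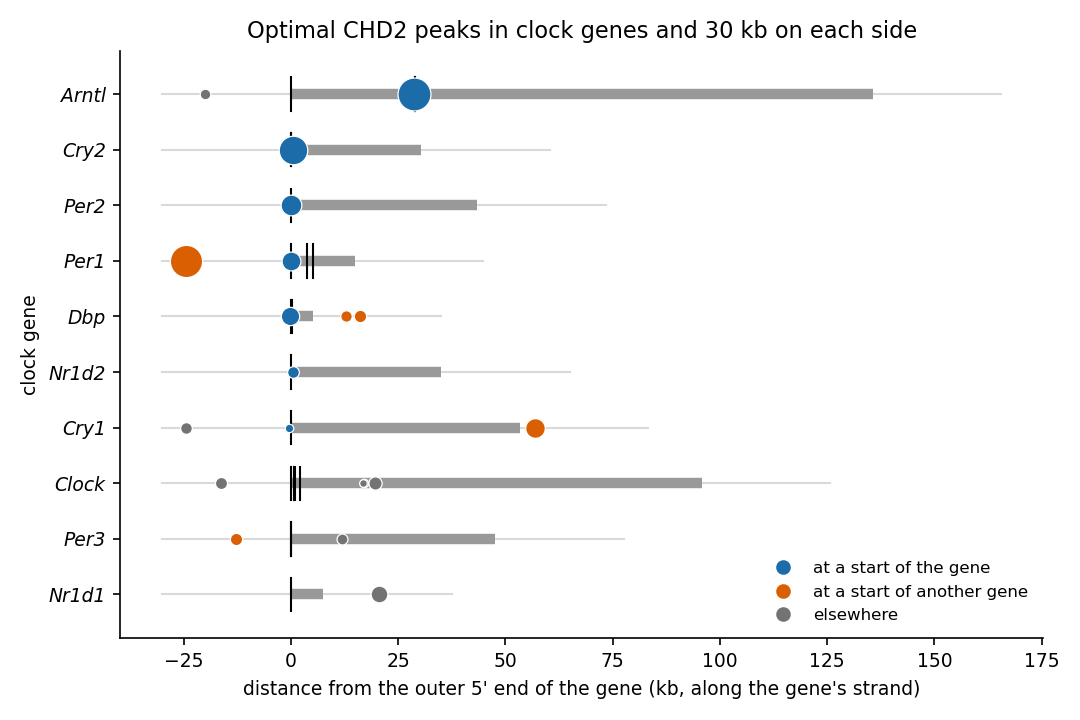
Optimal CHD2 peaks (points, area growing linearly with signal) by distance in kb from the outer 5′ end of each clock gene, along its strand. Thick bars are genes, thin lines the 30 kb flanks and vertical ticks the listed starts; colours separate peaks at a start of the gene, at a start of another gene and elsewhere. The Arntl peak of signal 269 sits 28807 bp inside the outer 5′ end, on internal starts, while Clock, Per3 and Nr1d1 have no point at a start.

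Cry2, which encodes a repressor of CLOCK and BMAL1, came next. Its peak at chr2:92433530-92433770 (GRCm38.p6) had a signal of 129 in replicate 1 and 71.9 in replicate 2, where it ranked 178 and 442. The optimal signal was 200, at rank 259. Unlike the peaks of Arntl, Per1, Per2 and Dbp, its summit lay downstream of the start, by 435 bp, and in the mm9 annotation 402 bp downstream and within an intron. None of the 10 motifs searched had a match within 50 bases of that mm9 summit, and the printed stretch holds no capitals. The 2 CCAAT boxes of the Cry2 promoter window lay upstream of its start, outside the peak.

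Per2 and Per1 encode the period proteins that carry CRY into the repressor complex. The Per2 peak had a signal of 40.3 in replicate 1 and 60.4 in replicate 2, at ranks 1089 and 602, and a summit 63 bp upstream of the outer 5′ end. Its optimal signal was 101. The Per1 peak had a signal of 35.5 in replicate 1 and 45.1 in replicate 2, at ranks 1272 and 966, and a summit 61 bp upstream of the outer 5′ end. Its optimal signal was 82.1. Per3, the remaining period gene, had no optimal peak at its start, and its strongest relaxed peak there had a signal of 6.0 in replicate 1 and 6.05 in replicate 2, at ranks 61683 and 40102. The Per1 and Per2 peaks were thus in the strongest 2000 of both replicates, and the Per3 peak was beyond the strongest 20000 of both.

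Dbp encodes a D-box activator of the output arm. Its start peak was close in rank between the replicates, 1180 in replicate 1 and 1115 in replicate 2, with signals of 37.8 and 40.3. The summit lay 151 bp upstream of the outer 5′ end, and the optimal signal was 77.2.

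The optimal start peaks of Nr1d2 and Cry1 had lower signals, and no peak of the strongest 20000 recurred in the same place at either start in both replicates. Nr1d2, which encodes REV-ERB beta, had an optimal signal of 26.3 at rank 4906. The overlapping peak ranked 103413 in replicate 1 and 4444 in replicate 2, and the conservative list did not hold it. The strongest peak anywhere within 1 kb of the start had a signal of 8.92 in replicate 1 and 15.9 in replicate 2, at ranks 14725 and 4444. Cry1, the other cryptochrome gene, had an optimal signal of 9.43 at rank 7947, close to the end of the list. The peak that overlapped it ranked 5523 in replicate 1 and 87974 in replicate 2, and it was absent from the conservative list. The strongest peak anywhere within 1 kb of the start had a signal of 13.7 in replicate 1 and 11.9 in replicate 2, at ranks 5523 and 7850. Each replicate thus had a peak of its strongest 20000 near both starts, at places that did not overlap.

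Clock and Nr1d1, which encodes REV-ERB alpha, lacked an optimal start peak. At the Clock starts the strongest relaxed peak had a signal of 11.9 in replicate 1 and 3.79 in replicate 2, at ranks 7153 and 151157. At Nr1d1 the values were 5.8 in replicate 1 and 6.55 in replicate 2, at ranks 70441 and 32192. For Clock the replicates thus lay on opposite sides of the strongest 20000, and for Nr1d1 both lay beyond it. A lower signal from a population of cells cannot tell fewer bound cells from less binding in each cell.

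**Figure D2:**
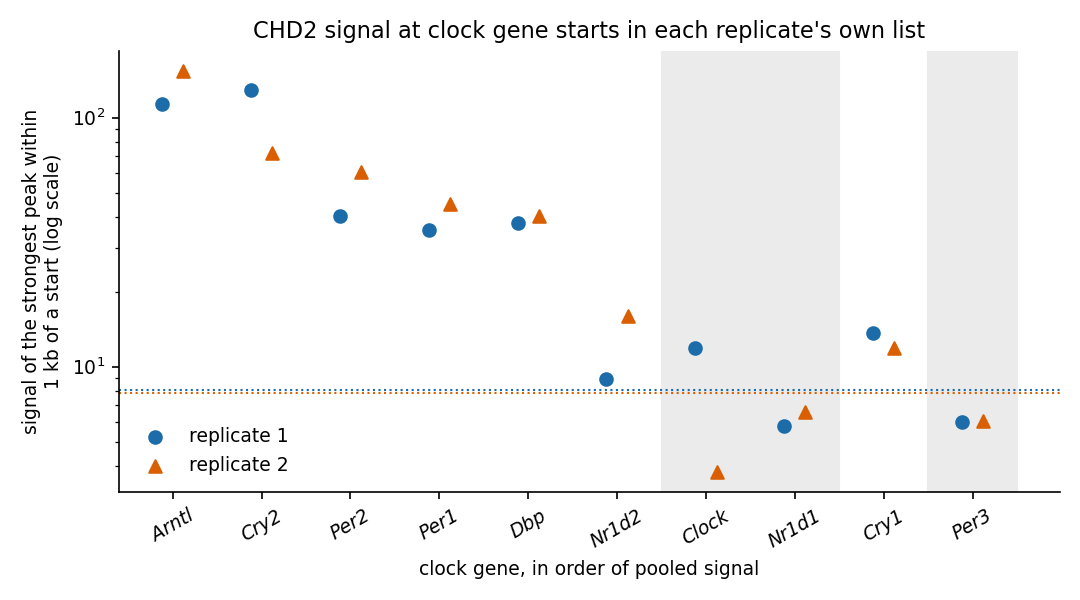
Signal (log scale) of the strongest peak within 1 kb of a start of each clock gene in replicate 1 (circles) and replicate 2 (triangles), ordered by pooled signal. Dotted lines mark the 20000th peak of each list (8.092 and 7.867), and grey bands mark the 3 genes with no optimal start peak. Arntl and Cry2 stand above the rest in both replicates, and Nr1d1 and Per3 lie under both lines.

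By rank within each replicate, the start peaks formed 2 steps and a tail. Arntl (233 and 63) and Cry2 (178 and 442) overlapped in rank range and changed places between replicates. The range of Per1 (1272 and 966) overlapped those of Per2 (1089 and 602) and Dbp (1180 and 1115), and Per1 and Dbp changed places. Per2 ranked ahead of Per1 and of Dbp in both replicates. Neither range of the first pair overlapped a range of these 3 genes, and theirs did not reach the ranks of Nr1d2, Cry1, Clock, Per3 or Nr1d1. These 5 start peaks were the ones in both replicates' strongest 2000.

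The members' share at starts was set beside all genes. An optimal summit lay at a start of 7 of 10 clock genes and of 15.4% of all protein-coding genes. In the conservative list the count was 5 of 10, against 14.9% of all genes, and a peak shared by both replicates' strongest 20000 lay at the start of the same 5, against 16.0% of all genes. With outer 5′ ends as the only starts, 6 of 10 had an optimal start peak, against 14.1% of all genes, and the gene lost was Arntl. Among the 7 members with an optimal start peak the median signal was 82.1, and among all 3316 genes with such a peak it was 44.6. By signal Arntl stood at place 145 of these 3316 genes, Cry2 at 276, Per2 at 721, Per1 at 925, Dbp at 979, Nr1d2 at 2621 and Cry1 at 3305. Because the genes were selected on these lists, nothing particular to them is read from these shares.

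**Figure D3:**
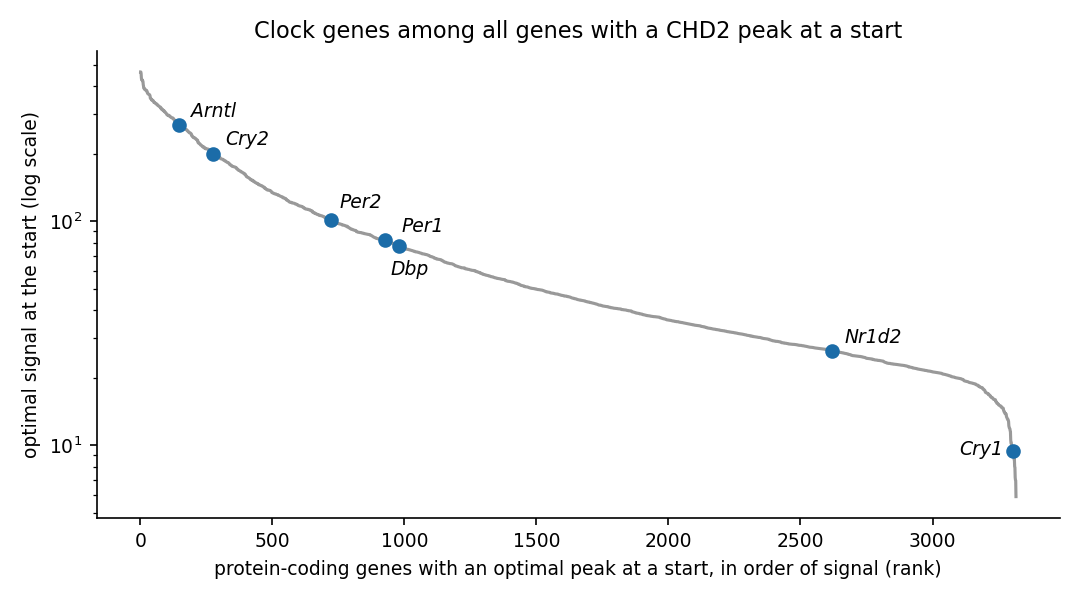
Optimal signal at a start (log scale) for all 3316 protein-coding genes with such a peak, in order of signal (grey line), with the 7 clock genes marked. Arntl stands at place 145 and Cry2 at 276, Per2, Per1 and Dbp between 721 and 979, and Cry1 near the end at 3305.

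Within 30 kb of the genes the optimal list held 20 peaks, 1 to 4 per gene. All 10 clock genes had at least 1, against 42.4% of all protein-coding genes. In the conservative list 9 of 10 had a peak, against 40.4% of all genes, and 9 of 10 had a peak shared by both replicates' strongest 20000, against 43.1%. Nr1d2 was the gene without in both. The median window of gene and flanks was 99.2 kb for the clock genes and 77.3 kb for all genes, and the part of window length in these counts was not tested. Of the 20 peaks, 11 overlapped a peak among the strongest 20000 of both replicates. The same share over the whole optimal list is not given, so nothing particular to these windows is read from the 11.

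Some of these peaks lay at the starts of neighbouring genes. Of the 20, 7 were at a start of the clock gene, 5 within 1 kb of a start of another gene and 8 at neither. The same split for the windows of all genes is not given. The strongest of the neighbours' peaks, in the Per1 window, had a signal of 134 in replicate 1 and 126 in replicate 2 and an optimal signal of 257, and its summit was 57 bp upstream of Tmem107, 24.4 kb from Per1. In the Cry1 window the strongest peak had a signal of 61.0 in replicate 1 and 29.3 in replicate 2 and lay 67 bp upstream of Mterf2, which encodes a mitochondrial transcription termination factor. Both windows thus took their strongest signal from another gene's promoter. Peaks at Vamp3, beside Per3, and at Fam83e and Sphk2, beside Dbp, had optimal signals of 29.8, 30.5 and 24.9. Each of these 3 was in the strongest 20000 of 1 replicate only and absent from the conservative list.

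The only optimal peak of the Nr1d1 window lay inside Thra, the neighbouring gene for thyroid hormone receptor alpha. It had a signal of 28.0 in replicate 1 and 33.2 in replicate 2, at ranks 1757 and 1428, and an optimal signal of 62.8. The summit was 13106 bp beyond the end of Nr1d1. Its mm9 counterpart lay in a Thra intron, 1240 bp from a start that the GENCODE annotation gives Thra. It had an E-box centred 8.5 bases from the summit and a YY1 core (GCCATNTTG) centred 15 bases from it. These motifs were in 2.25% and 0.629% of the windows around mm9 summits.

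Peaks inside the clock genes and away from their starts, at no other gene's start, had optimal signals of 6.23 to 36.0. Clock held 3 such optimal peaks, of signal 36.0, 9.03 and 6.23, of which the last pair share 138 bases. The strongest of the 3 had a signal of 12.8 in replicate 1 and 22.0 in replicate 2, and it was the only conservative peak of the Clock window. Per3 held 1, of optimal signal 21.7, with 11.5 in replicate 1 and 8.39 in replicate 2, and it was likewise the only conservative peak of its window. Clock and Per3 were thus without a start peak but had an internal peak that both replicates placed in their strongest 20000.

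Of the 15 conservative peaks in the windows, 4 had no overlapping optimal peak. They lay 21.4 kb upstream of Per1, 20.4 kb upstream of Cry1, 44.1 kb from the start of Cry2 inside Mapk8ip1, and at Sphk2 beside Dbp, with conservative signals of 35.3, 14.4, 25.5 and 33.5. All 4 were among the strongest 20000 of both replicates. How often conservative peaks lack an overlapping optimal peak in the whole list is not given. Nothing particular to these windows is read from the 4 of 15. The peak upstream of Per1 lay 189 bp from the small nucleolar RNA gene Snord118.

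In the relaxed lists' strongest 20000, the windows held 43 pooled peaks, 32 peaks of replicate 1 and 53 of replicate 2. Each gene had 2 to 8 pooled peaks, with a mean of 4.3 for the clock genes and 1.75 for all genes. In replicate 1 the means were 3.2 for the clock genes and 1.63 for all genes, and in replicate 2 they were 5.3 and 1.78. Dbp, a gene of 5.1 kb, had the most, with 8 pooled peaks. Peaks that recurred in both replicates numbered 15 and averaged 1.5 per clock gene and 0.761 over all genes.

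The limits of the rule cut close to some peaks. Just inside 30 kb were the Tmem107 peak, 24.2 kb from the end of Per1 nearest to it, and a peak of signal 26.2 at 24.2 kb from Cry1. Just outside were a peak of signal 151 at 34.3 kb from Dbp and a peak of signal 167 at 38.4 kb from Nr1d1. In the pooled list the last peak inside the strongest 20000 was in the Clock window at rank 19867 (signal 13.5), and the next was in the Arntl window at rank 20276 (13.3).

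Motifs were found in promoter windows of clock genes with and without a start peak. The table held 9 of the 10 genes, all but Per2. For Per1 it held starts at 69098949 and 69100152, inside the gene, while the optimal peak lay near the outer 5′ end at 69095108. The matches in the Per1 windows are thus not at its start peak. A CCAAT box was in 8 of 9, all but Nr1d1, and in 38.2% of the 21263 windows of the table. A GC box was in the same 8 and in 46.2% of windows. E-boxes were in the windows of Per1 and Cry1 and in 7.84% of all windows, and E-prime boxes in those of Cry1, Cry2 and Nr1d1 and in 4.68%. The AGGTCA element was in the windows of Arntl, Clock, Per1 and Nr1d2 and in 14.7% of all windows. Per3, without a start peak, held 3 CCAAT boxes and the only D-boxes, 2 of them, where 0.894% of windows held any. Matches to TGACGTCA, CTCGCGAG and the YY1 core GCCATNTTG were in none of the 9, and the NRF1 core GCGCATGC was in Clock alone. The windows of a gene were counted together where it had more than 1. The counts are thus per gene and the shares per window, so a gene with more windows had more room for a match. The CCAAT box of Clock was only in its window at 76303502, and the AGGTCA element of Arntl only in that at 113207511.

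Near the summits, the mm9 list gave sequence at the peaks themselves. In windows of 101 bases a CCAAT box was in 38.2% of the 4613 peaks, and within 10 bases of the summit, from its centre, in 16.8%. Along the strand of the gene, in the start peaks it was centred 5 bases before the summit at Arntl and at Per2, 8 bases before it at Per1 and 47 bases after it at Dbp. At Cry2 there was none. The Per1 window also held an E-box, found in 2.25% of peaks, and the Per2 window a D-box, found in 0.369%. Both of these windows held a GC box, found in 14.4%, and the Dbp window an AGGTCA element, found in 7.91%. By their mm9 summits, 3 of the 5 strong start peaks thus had a CCAAT box within 10 bases. The limit of 10 bases was not part of the plan, so this count is a description only. For Arntl the match depends on the list. There the optimal summit at base 64 is over 10 bases from the centre of the nearest box, at bases 50 to 54. The optimal summits of Per1 and Per2 were not placed on sequence, so whether theirs depends on the list was not tested.

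The wider clock was read from 57 other genes in 4 groups. An optimal peak was in the gene or within 30 kb for 35 of them, beside 42.4% of all genes, and at a start for 17, beside 15.4%. A peak was in the window of 4 of the 11 transcription factors, beside 42.4% of all genes, and at a start of 2, beside 15.4%. Nothing particular to any of the 4 groups is read from such counts. The start peaks of the transcription factors were at Ciart and Tef. Ciart, which encodes the repressor CHRONO, had a signal of 25.0 in replicate 1 and 17.2 in replicate 2. Tef, a relative of Dbp, had an optimal signal of 10.6 and no overlapping peak in replicate 1. Arntl2, Rora, Rorb, Nfil3, Hlf, Bhlhe40 and Bhlhe41 had no optimal peak in their windows. Away from starts, Npas2, a partner of BMAL1 related to CLOCK, had a peak of 28.7 at 29.2 kb from its start.

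Among the kinases, phosphatases and ubiquitin ligases, 12 of 18 had a peak in the window, beside 42.4% of all genes. A start peak lay at 7, beside 15.4%. The strongest was at Huwe1, a ubiquitin ligase that acts on REV-ERB alpha, with a signal of 135 in replicate 1 and 71.0 in replicate 2. Fbxw11, a ligase subunit that recognises phosphorylated PER, had an optimal signal of 87.6. Gsk3b, Csnk2b, Ppp1ca, Gsk3a and Csnk2a1, which encode kinase and phosphatase subunits, followed with 59.1, 55.4, 29.9, 20.7 and 17.9. Csnk1d and Csnk1e, the casein kinases that phosphorylate PER, had no optimal peak in their windows. The strongest other peaks were near Usp2 (102), at the start of Rnf26, and near Ppp1cc (58.8).

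The cofactors had a peak in the window in 11 of 16, beside 42.4% of all genes, and a start peak in 4, beside 15.4%. Tipin, the partner of Timeless, had the strongest start signal of the wider genes, 203 in replicate 1 and 165 in replicate 2, and an optimal rank of 29, ahead of Arntl. Cul4a had an optimal signal of 146, with the start of Pcid2 nearer to the summit, at 110 bp, than its own. Sfpq, an RNA-binding protein found in PER complexes, had 131, and Kdm5a, a histone demethylase known to work with CLOCK and BMAL1, had 24.0. Peaks of 157 near Nono and 102 near Wdr5 were away from their starts, the first with its summit 6 bp from a start of Zmym3.

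Of the output genes, 8 of 12 had a peak in the window, beside 42.4% of all genes, and 4 had a start peak, beside 15.4%. The values were 75.0 at Klf10, 38.9 at Herpud1, 27.2 at Fkbp5 and 24.3 at Klf9. The Klf10 peak was 18.8 in replicate 1 and 53.5 in replicate 2, at ranks 3217 and 732, and the Klf9 peak was not in the conservative list. Away from starts the strongest were at Por (29.0) and Cdkn1a (28.6).

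**Figure D4:**
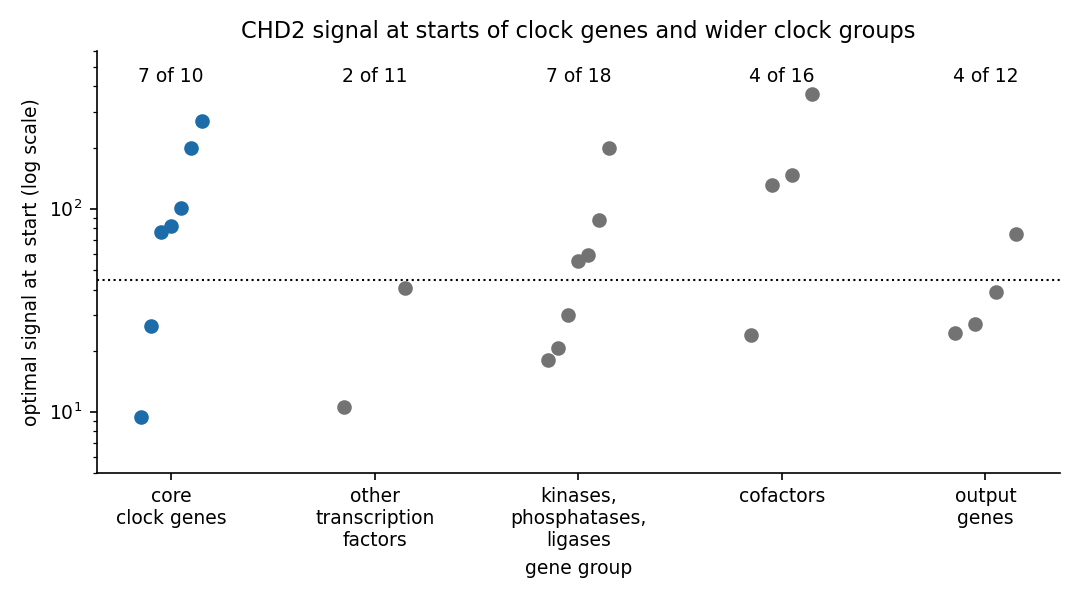
Optimal signal (log scale) at a start for the core clock genes (blue) and 4 wider groups (grey), 1 point per gene with a start peak and the count above each group. The dotted line is the median of all genes with a start peak, 44.6. In the core group 5 of the 7 points lie above it, and among the other transcription factors none of the 2 does. Points above it also occur among the cofactors (Tipin, Cul4a and Sfpq), the kinases and ligases (Huwe1, Fbxw11, Gsk3b and Csnk2b) and the output genes (Klf10). The remaining points of these groups lie below it.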

How the data were processed

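Peak lists of CHD2 ChIP-seq were read from 2 biological replicates of ES-E14 cells. As the deposited notes state, the 2 thresholded lists (optimal and conservative) were derived from both replicates' relaxed lists, the pooled relaxed list and 1 more input. The signal of each peak is the deposited value of the authors' peak caller, used within a list only, and other deposited columns gave the summit offsets. The caller, the aligner and any normalization were not given in the sources used here, and how a control was weighed can shift every signal.

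Genes and starts on mm10 came from RefSeq tables of GRCm38.p6. The strand was known for 21531 of 21887 protein-coding genes (98.4%). The mm9 list was read against GENCODE M1 and its genome, and no coordinate was moved between builds. Peaks overlapped where they shared 1 bp. Python 3.11.15, pandas 2.3.3 and numpy 2.4.6 were used, and the counting was tested on simulated peaks. With 1 group there was no contrast and no test.

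The members and lists were chosen with earlier results of these data known. Named wider genes were all with a start peak plus the 2 strongest other peaks per group. Outside this rule, 7 transcription factors, Csnk1d and Csnk1e were named as genes without a peak in their windows. Other wider genes without such a peak were not named. A result that this rule would name is not reported here. Promoter-table starts were adopted after the Arntl peak was seen. Other flanks, windows, lists and depths were tried as alternatives.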

Additional observations from a re-analysis of the deposited data

How the results depend on the processing

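Of 54 alternatives of a count, 46 left it within 1.5 times its value. The 20 optimal peaks in the windows became 11 in the stronger 50% of the optimal list, 13 in the mm9 list, 10 with the gene body alone and 13 with flanks of 10 kb. The 35 wider genes with a peak became 23 in the stronger 50% and 18 with the gene body alone, and the 17 with a start peak became 11 in the stronger 50% and 9 in the mm9 list. Shorter lists and windows hold fewer peaks by construction. Leaving out a replicate meant taking the 8282 strongest peaks of the other replicate's relaxed list, the length of the optimal list. The length was thus fixed, and similar counts are partly built in. Leaving out each replicate in turn gave 9 to 9 clock genes with a peak, 22 to 23 peaks and 7 to 7 start peaks. Of the wider genes it gave 32 to 37 with a peak and 19 to 19 with a start peak. The genes changed under equal counts, as Per3 had no peak without replicate 1 and Nr1d2 none without replicate 2. Without replicate 2, Clock entered the start peaks and Nr1d2 left. The Arntl rank, 122 in the optimal list, was 63 without replicate 1 and 233 without replicate 2, over 1.5 times away in each direction, and 141 in the mm9 list. The start definitions, 3 of the alternatives, were added after the data were seen. No paired analysis was possible because there was 1 group. With 2 replicates and unknown read depth, a missing peak was not detected at the depth of these lists.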
